A study of Mus musculus with 16 samples.

Results

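Transcripts of 9 genes that mark the type 1 cell of the alveolar epithelium were followed in mouse lungs: Ager, Hopx, Aqp5, Pdpn, Rtkn2, Ndnf, Clic5, Akap5 and Emp2. The genes were taken by name, as a list of type 1 markers, and all 9 were measured among the 20863 genes of the array. Each gene was read from the probe with the highest mean over the 16 arrays, and a second probe was present for Hopx, Aqp5, Pdpn and Emp2. Ndnf stood in the array's annotation under an older symbol and was matched through its RefSeq transcript.

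The RNA came from whole lungs of C57BL/6 mice aged 9 to 12 weeks. Bleomycin, a drug that breaks DNA, injures the alveoli and leads to scarring, was instilled into the trachea at 1 unit/kg, and PBS was its vehicle control. Every animal also received an intratracheal oligonucleotide of locked nucleic acid (LNA), 5 mg/kg per dose, given 4 days and 2 days ahead of bleomycin or PBS and once more 4 days later. The LNA was either directed against the microRNA miR-199a-5p, and is called the inhibitor here, or was LNA-control. The groups were bleomycin with the inhibitor (5 arrays), bleomycin with LNA-control (5 arrays), PBS with the inhibitor (3 arrays) and PBS with LNA-control (3 arrays), so the PBS lungs also carried an instilled LNA. The day of collection is not stated in the labels, and neither is whether each replicate is a separate animal, so p-values measure the spread between these samples, which may be technical. The comparisons ask, by the study's title, how blocking miR-199a-5p bears on fibrosis caused by bleomycin.

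Type 1 cells are large and very thin cells that cover most of the gas exchange surface. They are renewed from type 2 cells, which make surfactant, through a transitional state that is marked by keratin 8 and by claudin 4. The transcription factor NKX2-1 and the YAP and TAZ coactivators, which act through TEAD factors, are known to hold type 1 identity. Several of the 9 genes are also made by other cells of the lung: podoplanin, for example, marks lymphatic endothelium and mesothelium.

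The inhibited microRNA is shown with its seed, bases 2 to 8, in capitals, since it defines the treatment. RefSeq on GRCm38.p6 places it at chr1:162217844-162217866 (plus strand) and at chr9:21496537-21496559 (minus strand), with the same mature sequence at both loci. The promoters of Hopx and Clic5 are shown because both transcripts were lower after bleomycin with LNA-control and, in bleomycin lungs, higher with the inhibitor. Each is a window of 300 bases over a transcript start in RefSeq, at chr5:77095218-77095517 and chr5:77115074-77115373 for the starts of Hopx (minus strand) and at chr17:44188322-44188621 for Clic5 (plus strand). Capitals there mark a match to a TEAD (GGAATG), NKX2 family (CAAGTG) or AP-1 (TGANTCA) motif on either strand.
mmu-miR-199a-5p: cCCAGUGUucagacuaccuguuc
Hopx, start nearer the gene's end: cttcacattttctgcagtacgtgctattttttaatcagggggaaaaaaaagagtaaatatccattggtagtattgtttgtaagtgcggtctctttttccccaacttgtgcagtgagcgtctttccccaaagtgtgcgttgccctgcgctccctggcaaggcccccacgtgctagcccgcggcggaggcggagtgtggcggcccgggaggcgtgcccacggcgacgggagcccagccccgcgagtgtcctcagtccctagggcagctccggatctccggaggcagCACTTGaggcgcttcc
Hopx, start farther from the gene's end: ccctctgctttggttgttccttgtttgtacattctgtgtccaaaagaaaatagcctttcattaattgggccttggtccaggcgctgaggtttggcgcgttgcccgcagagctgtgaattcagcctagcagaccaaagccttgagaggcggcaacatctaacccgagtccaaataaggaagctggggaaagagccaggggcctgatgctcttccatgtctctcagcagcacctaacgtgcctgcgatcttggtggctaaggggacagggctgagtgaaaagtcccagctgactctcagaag
Clic5: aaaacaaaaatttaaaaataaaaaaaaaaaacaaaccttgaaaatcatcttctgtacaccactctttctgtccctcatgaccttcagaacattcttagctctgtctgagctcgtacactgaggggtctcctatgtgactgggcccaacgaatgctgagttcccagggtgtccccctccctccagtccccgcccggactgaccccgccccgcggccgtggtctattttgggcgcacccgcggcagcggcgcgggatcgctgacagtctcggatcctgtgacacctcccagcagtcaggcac

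The promoter table matched 7 of the 9 genes with 8 promoters. The NKX2 motif was found in 1 of them, the Hopx promoter above, and in 13.6% of all 32851 promoters of the table. The TEAD motif was in 0 of the 8 and in 14.7% of all promoters, and the AP-1 motif in 0 of the 8 and in 7.81% of all. A match of these letters is a description of the sequence and not a binding site.

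Some arrays stood apart in transcripts of other tissues. In the group of bleomycin with LNA-control the thymocyte gene Rag1 read 10.03 on replicate 1 and 10.88 on replicate 4 (log2 intensity), and on all other arrays it read 5.43 to 6.10. The squamous keratin Krt13 read 5.59 on replicate 3 of PBS with the inhibitor, against 11.38 to 15.73 elsewhere. The fat gene Adipoq ran from 12.26 to 12.69 in bleomycin lungs with the inhibitor and from 11.02 to 11.84 in those with LNA-control, and the heart muscle gene Myh6 from 14.28 to 15.18 and from 13.77 to 14.50 in the same groups. RNA integrity numbers averaged 9.0 in bleomycin lungs with the inhibitor, 8.2 in those with LNA-control and 8.33 in each PBS group.

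The 9 genes did not move as a block (see the plot of their values by array). Values are log2 intensities, differences are on the log2 scale with the standard error from limma, and a gene is said to have risen or fallen where its limma p, adjusted over all 20863 genes by the Benjamini-Hochberg method, was under 0.05. After bleomycin with the inhibitor 0 of the 9 passed (13.4% of all genes passed, 7.31% higher and 6.04% lower). Of the 9, 2 had an unadjusted p under 0.05 in limma there, as did 30.1% of all genes, and 2 had one in the exact permutation test. With 5 arrays against 3 that test gives such a p, 0.0357, only to fully separated groups, as 20.7% of all genes were there. After bleomycin with LNA-control 2 rose and 2 fell (17.5% of all genes passed, 9.6% higher and 7.9% lower). In bleomycin lungs 4 were higher and 1 was lower with the inhibitor than with LNA-control (24.9% of all genes passed, 13.4% higher and 11.4% lower). In PBS lungs the inhibitor moved 0 of the 9 in limma (0.0479% of all genes passed, 0.0336% higher and 0.0144% lower), 0 also at an unadjusted p under 0.05 and 0 in the exact permutation test, which with 3 arrays against 3 cannot give a p below 0.1.

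**Figure D1:**
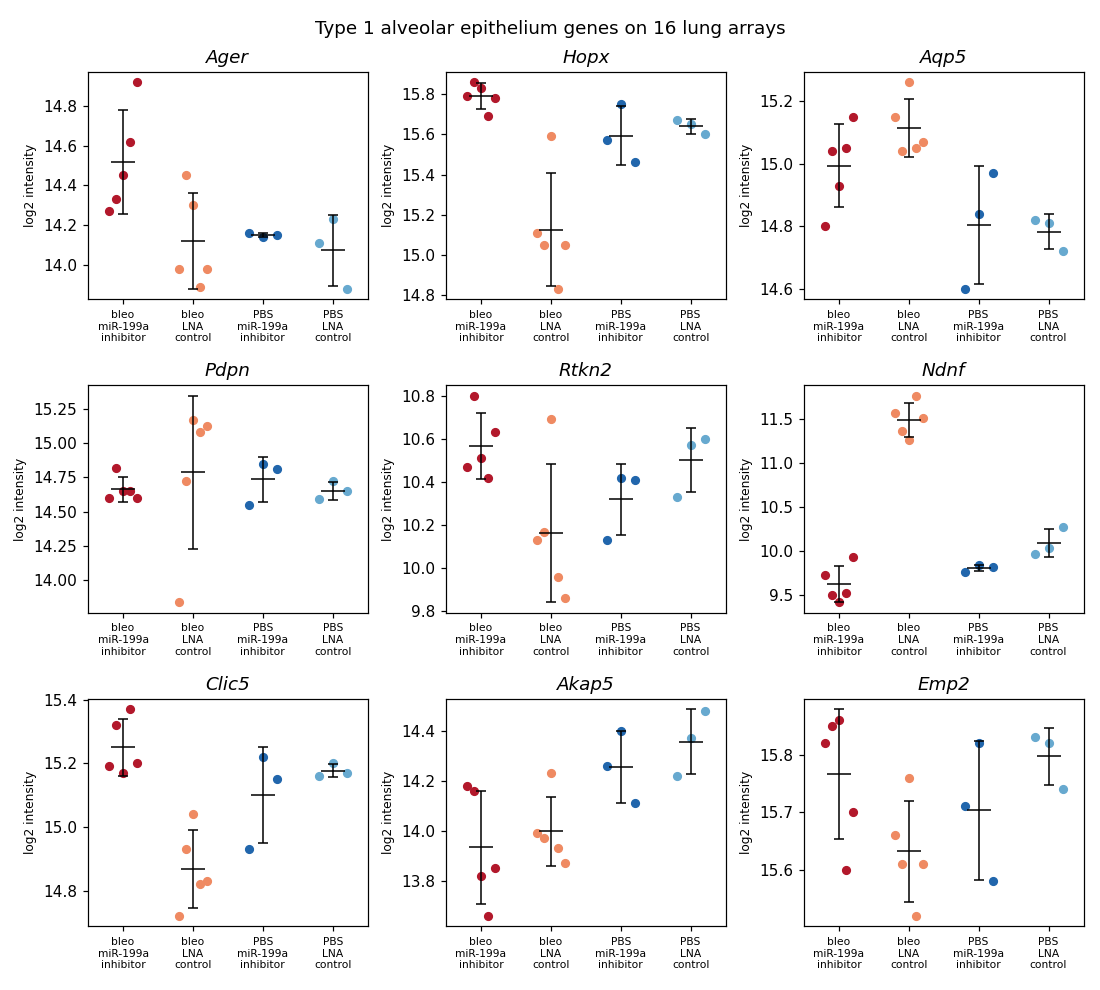
Log2 intensity of the 9 genes on each of the 16 arrays, by group; each point is an array, the bar is the group mean and the whiskers are 1 SD (5 arrays in bleomycin groups, 3 in PBS groups). The axes differ between genes. Ndnf stands highest in bleomycin lungs with LNA-control, at 11.26 to 11.76, while Hopx and Clic5 stand lowest there.

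The interaction, which asks whether bleomycin acted differently with the inhibitor than with LNA-control, passed for 3 of the 9, Ndnf, Hopx and Clic5 (7.01% of all genes passed, 3.07% higher and 3.94% lower). The median difference of the 9 was 0.15 after bleomycin with the inhibitor, where the median of all genes was 0.008. It was -0.161 after bleomycin with LNA-control (all genes 0.003), 0.132 for the inhibitor in bleomycin lungs (0.015) and -0.075 for the inhibitor in PBS lungs (0.014). Groups were fully separated, with no array of one inside the range of the other, for 2, 4, 3 and 1 of the 9 in these comparisons in that order, and for 20.7%, 25.3%, 13.8% and 18.1% of all genes. With replicates 1 and 4 of bleomycin with LNA-control left out, 1 of the 9 passed after bleomycin with LNA-control (10.8% of all genes), 3 for the inhibitor in bleomycin lungs (11.3%) and 1 for the interaction (2.52%).

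**Figure D2:**
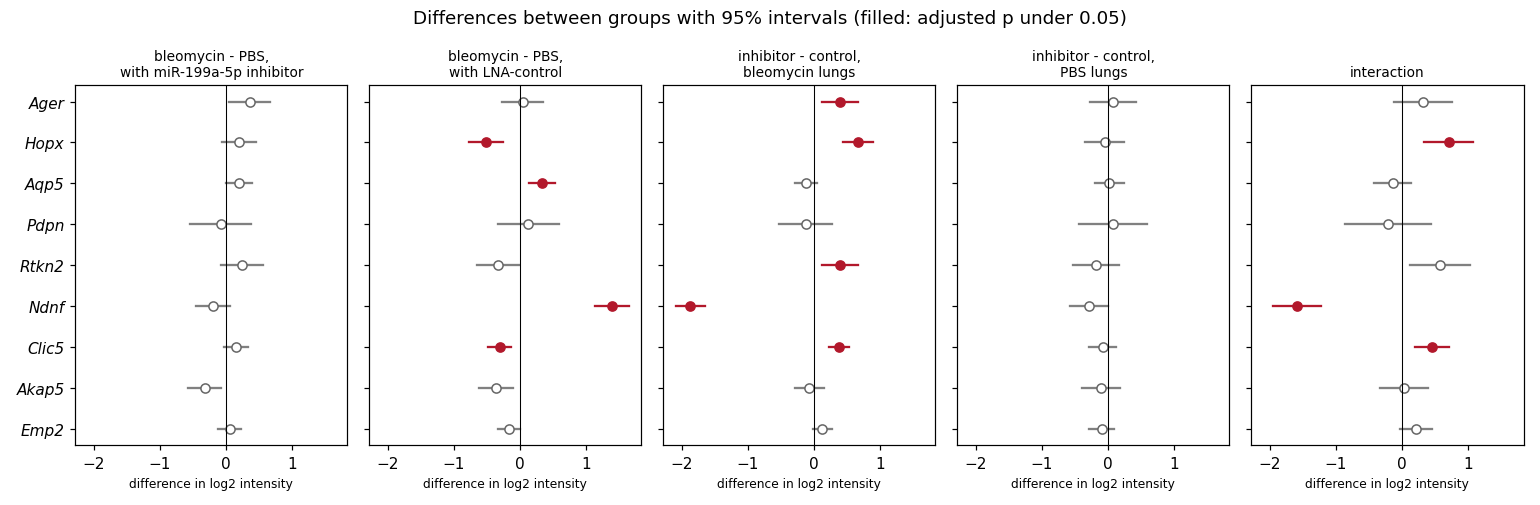
Differences in log2 intensity for the 9 genes in 4 comparisons and the interaction, with 95% intervals from limma; filled red points passed an adjusted p of 0.05. Ndnf lies at 1.40 after bleomycin with LNA-control and at -1.87 for the inhibitor in bleomycin lungs, and the other called genes lie between -0.51 and 0.66 in those comparisons.

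Ndnf, a secreted glycoprotein with fibronectin type III domains, changed the most of the 9. It read 9.73, 9.50, 9.43, 9.53 and 9.93 in bleomycin lungs with the inhibitor, against 11.56, 11.36, 11.26, 11.76 and 11.51 in bleomycin lungs with LNA-control. PBS lungs gave 9.77, 9.84 and 9.82 with the inhibitor and 9.97, 10.04 and 10.27 with LNA-control. Every array of bleomycin with LNA-control stood above every array of the other groups. Bleomycin raised Ndnf by 1.40 ± 0.12 with LNA-control (2.63-fold, limma adjusted p = 1.2e-06). In bleomycin lungs it was lower with the inhibitor, with a difference of -1.87 ± 0.11 (3.65-fold lower, adjusted p = 1.33e-08). With the inhibitor bleomycin moved it by -0.19 ± 0.12, which did not pass (adjusted p = 0.323, 95% interval -0.44 to 0.07), and the interaction was -1.58 ± 0.17 (adjusted p = 7.82e-05). In PBS lungs the inhibitor's arrays lay below those of LNA-control without overlap, by -0.28 ± 0.14, and this did not pass (adjusted p = 0.691, exact permutation p = 0.1, the smallest that 3 against 3 allows). Ndnf kept its calls in all 29 alternatives tried for bleomycin with LNA-control (1.28 to 1.51) and in all 29 for the inhibitor in bleomycin lungs (-2.06 to -1.75), and in all 28 for the interaction (-1.73 to -1.47).

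Other genes known to mark type 1 cells were taken from a list of 19, of which 18 were measured, and some had the pattern of Ndnf (see the map of these genes by array). Igfbp2, which binds insulin-like growth factors and marks mature type 1 cells, read 12.83 to 13.27 in bleomycin lungs with the inhibitor and 14.39 to 14.59 in those with LNA-control. In PBS lungs it read 13.05 to 13.25 with the inhibitor and 13.20 to 13.38 with LNA-control. It rose by 1.18 ± 0.095 after bleomycin with LNA-control (2.27-fold, adjusted p = 6.13e-07) and was lower with the inhibitor in bleomycin lungs (difference -1.36 ± 0.08, adjusted p = 2.94e-08). Spock2, a secreted proteoglycan, had means of 11.89 ± 0.23 and 13.34 ± 0.17 in bleomycin lungs with the inhibitor and with LNA-control (SD, n = 5 each), and of 11.75 ± 0.10 and 11.88 ± 0.08 in the PBS groups in that order (n = 3 each). It rose by 1.46 ± 0.12 after bleomycin with LNA-control (adjusted p = 7.62e-07) and was lower with the inhibitor (difference -1.45 ± 0.10, adjusted p = 1.74e-07). The semaphorin gene Sema3b was lower with the inhibitor in bleomycin lungs (-0.56 ± 0.07, adjusted p = 8.41e-05).

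Not all of that list went the way of Igfbp2. After bleomycin with LNA-control 4 of the 18 rose and 3 fell, with a median of 0.02 (17.5% of all genes passed). Those that fell were Cav1 (-0.58 ± 0.10, adjusted p = 0.000923) and Cav2 (-0.54 ± 0.10, adjusted p = 0.00107), which encode caveolins and are also made by endothelium, and the angiogenic factor Vegfa (-0.36 ± 0.10, adjusted p = 0.0231), which is named here after its values were seen. Vegfa ran from 14.74 to 14.95 in bleomycin lungs with the inhibitor and from 14.20 to 14.71 in those with LNA-control. Between these bleomycin groups 4 of the 18 were higher and 7 lower with the inhibitor, with a median of -0.074 (24.9% of all genes passed). Leaving out replicates 1 and 4 of bleomycin with LNA-control, 4 rose and 2 fell after bleomycin with LNA-control, and 1 was higher and 6 were lower with the inhibitor in bleomycin lungs. That comparison of LNAs had 0 higher and 3 lower with fat and heart transcripts as covariates. The share of all genes that passed with these covariates is not given here. After bleomycin with the inhibitor 3 rose and 3 fell (13.4% of all genes passed). Among them were Gprc5a, a receptor of airway and alveolar epithelium (0.42 ± 0.10, adjusted p = 0.0179), and Sema3a (-0.38 ± 0.08, adjusted p = 0.00909). Gprc5a missed the threshold without replicate 1 of PBS with the inhibitor (0.37, adjusted p = 0.0696) and in 5 other alternatives, and Sema3a in 3. In PBS lungs 0 of the 18 passed in limma.

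**Figure D3:**
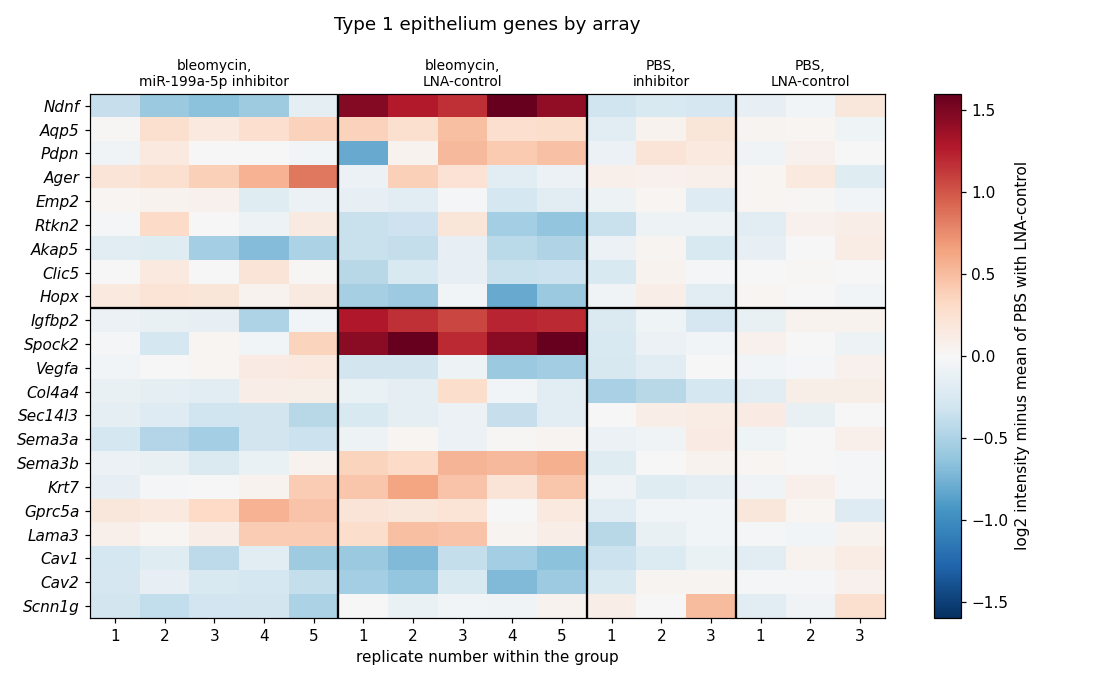
Log2 intensity on each array minus the gene's mean over PBS with LNA-control, as a colour from -1.6 (blue) to 1.6 (red); columns are arrays grouped by treatment, rows above the black line are the 9 genes and rows below it the other type 1 genes that passed in either bleomycin comparison. Ndnf, Igfbp2 and Spock2 are red on all 5 arrays of bleomycin with LNA-control and near 0 or blue on nearly all others. Hopx, Clic5, Cav1 and Cav2 are below 0 on those 5 arrays (Hopx by -0.81 to -0.05). On every array of bleomycin with the inhibitor Cav1 (-0.57 to -0.18) and Cav2 (-0.38 to -0.13) are also below 0, and Hopx is above 0 (0.05 to 0.22).

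Hopx encodes a small homeodomain protein that does not bind DNA itself and that marks type 1 cells in the adult alveolus. It read 15.79, 15.86, 15.83, 15.69 and 15.78 in bleomycin lungs with the inhibitor, against 15.11, 15.05, 15.59, 14.83 and 15.05 in those with LNA-control. PBS lungs gave 15.57, 15.75 and 15.46 with the inhibitor and 15.67, 15.65 and 15.60 with LNA-control. Within the bleomycin lungs with LNA-control, replicate 3 lay close to the PBS arrays and the other 4 lay lower. Hopx fell by 0.51 ± 0.12 after bleomycin with LNA-control (1.43-fold lower, adjusted p = 0.00793), and its arrays did not overlap. It was higher by 0.66 ± 0.11 with the inhibitor in bleomycin lungs (1.58-fold, adjusted p = 0.000398), again without overlap, and the interaction was 0.71 ± 0.17 (adjusted p = 0.0244). After bleomycin with the inhibitor its difference of 0.20 ± 0.12 did not pass (adjusted p = 0.299). The second probe of Hopx gave differences of -0.63 ± 0.10, 0.50 ± 0.09 and 0.65 ± 0.14 in the called comparisons, all called when every probe was tested as its own feature (adjusted p = 0.000339, 0.000656 and 0.0121). Without replicates 1 and 4 of bleomycin with LNA-control, the fall was -0.41 (adjusted p = 0.0543), the difference made by the inhibitor 0.56 (adjusted p = 0.00653) and the interaction 0.60 (adjusted p = 0.0802). The interaction also missed the threshold without replicate 1 or 3 of PBS with the inhibitor (adjusted p = 0.0557 and 0.0591) and without any replicate of the PBS group given LNA-control (0.0578, 0.064 and 0.0523 for replicates 1, 2 and 3). With fat and heart transcripts as covariates the fall was -0.46 (adjusted p = 0.0607), the inhibitor's difference in bleomycin lungs 0.46 (adjusted p = 0.309) and the interaction 0.58 (adjusted p = 0.244). With RNA integrity as a covariate the interaction was 0.66 (adjusted p = 0.0615).

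Clic5, a protein of the chloride intracellular channel family that lies with ezrin under the membrane, followed Hopx with smaller differences. It ran from 15.17 to 15.37 in bleomycin lungs with the inhibitor and from 14.72 to 15.04 in those with LNA-control, and from 14.93 to 15.22 and from 15.16 to 15.20 in the PBS groups with the inhibitor and with LNA-control. It fell by 0.31 ± 0.09 after bleomycin with LNA-control (1.24-fold lower, adjusted p = 0.0188) and was higher by 0.38 ± 0.07 with the inhibitor in bleomycin lungs (1.30-fold, adjusted p = 0.00164). The interaction was 0.46 ± 0.12 (adjusted p = 0.0322). Without replicates 1 and 4 of bleomycin with LNA-control these were -0.24 (adjusted p = 0.123), 0.32 (adjusted p = 0.0258) and 0.39 (adjusted p = 0.116). The fall also missed the threshold without any 1 of the PBS arrays with LNA-control (adjusted p = 0.0528, 0.0718 and 0.0641 without replicates 1, 2 and 3). The interaction missed it without replicate 4 of bleomycin with the inhibitor, replicate 1, 4 or 5 of bleomycin with LNA-control, replicate 1 of PBS with the inhibitor, or any replicate of PBS with LNA-control (0.37 to 0.46, adjusted p = 0.0504 to 0.0956). With fat and heart transcripts as covariates the differences were -0.23 (adjusted p = 0.176), 0.29 (adjusted p = 0.371) and 0.38 (adjusted p = 0.278). The interaction was 0.44 with RNA integrity as a covariate (adjusted p = 0.0718) and 0.46 with squamous transcripts (adjusted p = 0.052).

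Genes of the capillary endothelium, which lies against type 1 cells, moved in the same comparisons as Hopx and Clic5. Of 10 capillary genes 9 fell after bleomycin with LNA-control (median -0.61), among them the growth factor receptor Kdr (-0.95 ± 0.10), and 9 were higher with the inhibitor in bleomycin lungs (median 0.56). Their summed intensity, as log2, ran from 16.46 to 16.63 in bleomycin lungs with the inhibitor and from 15.92 to 16.21 in those with LNA-control, and from 16.32 to 16.64 and from 16.56 to 16.62 in the PBS groups in the same order. Without these replicates of the LNA-control lungs (1 and 4) the counts were 7 and 9. They were 6 and 0 with fat and heart transcripts as covariates. For the inhibitor Cldn5, Tek, Apln and Ednrb, the 4 with the smallest p, were then at 0.49, 0.35, 0.48 and 0.46 (adjusted p = 0.169 to 0.372). The fat gene Adipoq itself differed between the bleomycin groups without overlap, so these covariates are confounded with the inhibitor there. The share of all genes that passed with them is not given here, so a loss of calls over all genes cannot be told apart. Of 8 club and ciliated genes of the airway 3 fell and 0 rose after bleomycin with LNA-control (median -0.227, 17.5% of all genes passed). With the inhibitor in bleomycin lungs 2 of the 8 were higher and 0 lower (median 0.119). That is close to the 24.9% of all genes that passed there. Their summed intensity was 18.94 to 19.14 in bleomycin lungs with the inhibitor and 18.76 to 18.92 in those with LNA-control. In PBS lungs it was 18.94 to 18.95 with the inhibitor and 18.94 to 18.97 with LNA-control. The brightest of them, Scgb1a1, had means of 18.16 and 18.08 in the bleomycin groups and did not pass for the inhibitor there (adjusted p = 0.362). The part of capillary and airway cells in the values of Hopx and Clic5 was not tested. In RNA of whole lungs, fewer cells of a type and less RNA per cell cannot be told apart.

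Ager, the receptor for advanced glycation end products, is a surface protein by which type 1 cells are often recognised. It read 14.27, 14.33, 14.45, 14.62 and 14.92 in bleomycin lungs with the inhibitor, against 13.98, 14.45, 14.30, 13.89 and 13.98 in those with LNA-control. PBS lungs gave 14.16, 14.14 and 14.15 with the inhibitor and 14.11, 14.23 and 13.88 with LNA-control. Ager was higher with the inhibitor in bleomycin lungs by 0.40 ± 0.13 (1.32-fold, adjusted p = 0.0316), with arrays of the groups overlapping. That call was lost without replicate 4 or 5 of bleomycin with the inhibitor, without replicate 1, 4 or 5 of bleomycin with LNA-control (adjusted p = 0.0691 to 0.0864) and without both replicates 1 and 4 of that group (0.27, adjusted p = 0.234). With fat and heart transcripts as covariates the difference was -0.06 (adjusted p = 0.929), and with the RNA integrity number as a covariate it was 0.29 (adjusted p = 0.168). Bleomycin moved Ager by 0.05 ± 0.15 with LNA-control (adjusted p = 0.886, 95% interval -0.26 to 0.36) and by 0.37 ± 0.15 with the inhibitor (adjusted p = 0.104, exact permutation p = 0.0357), and neither passed. The interaction, 0.32 ± 0.21, did not pass either (adjusted p = 0.389).

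Aqp5, a water channel of the apical membrane that airway glands also make, was the other member that rose after bleomycin with LNA-control. It read 15.15, 15.04, 15.26, 15.05 and 15.07 there, against 14.82, 14.81 and 14.72 in PBS lungs with LNA-control, without overlap. The rise was 0.33 ± 0.09 (1.26-fold, adjusted p = 0.0189), and the second probe gave 0.39 ± 0.13 (adjusted p = 0.0444). Without replicates 1 and 4 of bleomycin with LNA-control it was 0.34 (adjusted p = 0.0634), and the call was also lost when replicate 2 (0.0529) or replicate 3 (0.0979) of the PBS lungs given LNA-control was left out. With the inhibitor Aqp5 ran from 14.80 to 15.15 after bleomycin and from 14.60 to 14.97 after PBS, a difference of 0.19 ± 0.09 that did not pass (adjusted p = 0.17). The interaction of -0.14 ± 0.13 did not pass (adjusted p = 0.577, 95% interval -0.42 to 0.14).

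Pdpn, the mucin-type membrane glycoprotein podoplanin, gave different answers from its probes (see the plot of probe pairs). Its brighter probe read 13.84, 14.72, 15.17, 15.08 and 15.12 in bleomycin lungs with LNA-control, against 14.59, 14.72 and 14.65 in PBS lungs with LNA-control, so that replicate 1 alone lay below the PBS arrays. Its difference of 0.13 ± 0.22 did not pass (adjusted p = 0.758), and without replicate 1 it was 0.37 and passed (adjusted p = 0.0325). The dimmer probe read 9.97 to 10.10 in bleomycin lungs with LNA-control, replicate 1 among them, against 9.63 to 9.74 in PBS lungs with LNA-control. That probe rose by 0.34 ± 0.08 (adjusted p = 0.00512) and was lower with the inhibitor in bleomycin lungs (difference -0.58 ± 0.07, adjusted p = 2.09e-05), where it read 9.30 to 9.52. In PBS lungs it read 9.26 to 9.53 with the inhibitor, without overlap with LNA-control, and its difference of -0.29 ± 0.08 did not pass (adjusted p = 0.35). For the brighter probe the inhibitor's difference in bleomycin lungs was -0.12 ± 0.19 (adjusted p = 0.673), and -0.36 without replicate 1 of bleomycin with LNA-control (adjusted p = 0.0164). Other cells that make podoplanin were followed by 4 lymphatic endothelial and 4 mesothelial genes. After bleomycin with LNA-control 0 rose and 1 fell of the lymphatic genes, and 0 rose and 2 fell of the mesothelial genes. With the inhibitor in bleomycin lungs 2 lymphatic genes were higher and 1 lower, and 3 mesothelial genes were higher. Of all genes 17.5% and 24.9% passed in these comparisons in that order. The summed intensity of the lymphatic genes, as log2, was 12.55 to 12.86 in bleomycin lungs with the inhibitor, 12.37 to 12.47 in those with LNA-control, 12.78 to 13.09 in PBS lungs with the inhibitor and 12.79 to 12.91 in those with LNA-control. That of the mesothelial genes was 13.73 to 14.18, 13.65 to 13.85, 13.30 to 13.44 and 13.55 to 13.74 in the same groups. Their part in the values of Pdpn was not tested.

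**Figure D4:**
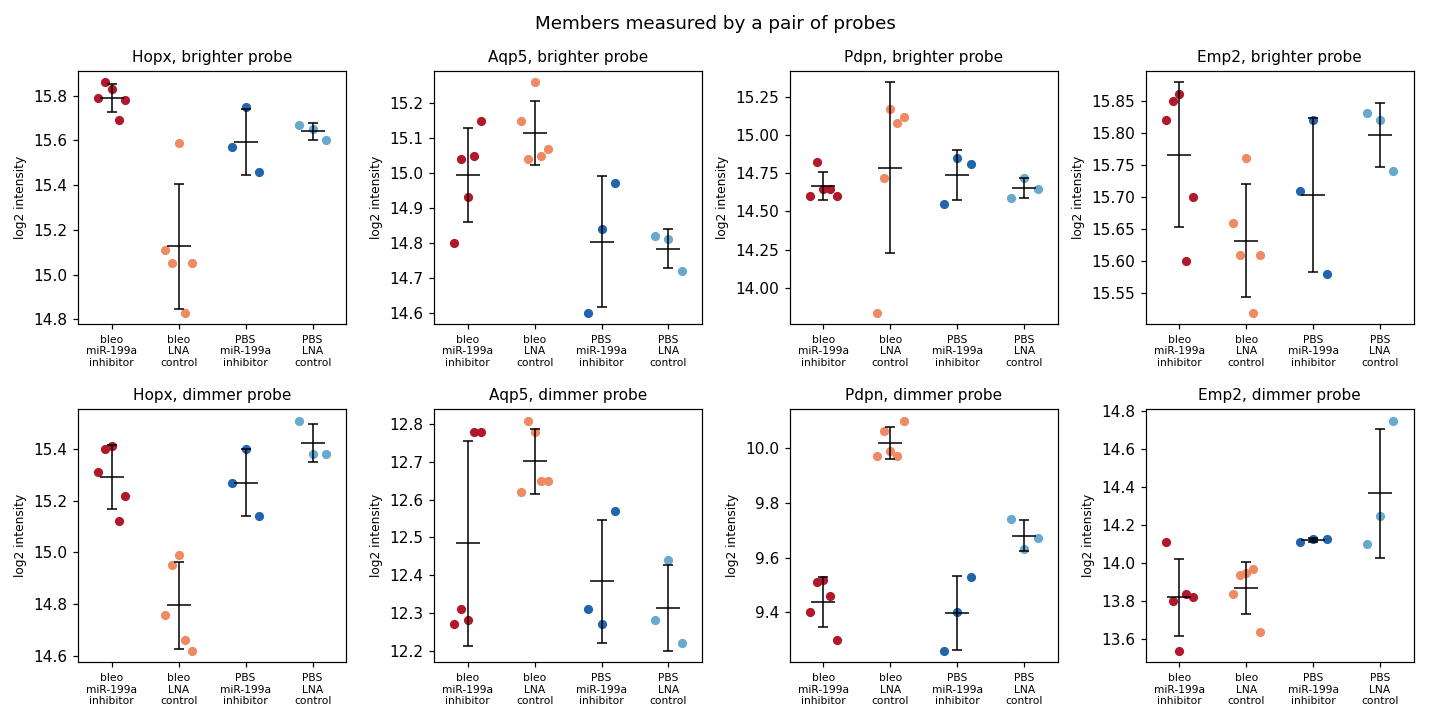
Log2 intensity by array for the brighter (top) and dimmer (bottom) probe of Hopx, Aqp5, Pdpn and Emp2; points are arrays, bars group means and whiskers 1 SD (5 arrays in bleomycin groups, 3 in PBS groups), and axes differ between panels. The dimmer Pdpn probe separates bleomycin with LNA-control (9.97 to 10.10) from the other groups, which the brighter probe does not, while both Hopx probes are lowest in that group.

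Emp2, a membrane protein with 4 spans that is abundant in type 1 cells, was read by probes that also differed. On the brighter probe it ran from 15.60 to 15.86 in bleomycin lungs with the inhibitor and from 15.52 to 15.76 in those with LNA-control, and from 15.58 to 15.82 and from 15.74 to 15.83 in the PBS groups in that order. Its largest difference among the 4 comparisons, -0.16 ± 0.08 after bleomycin with LNA-control, did not pass (adjusted p = 0.201, 95% interval -0.33 to 0.01). The dimmer probe changed by -0.49 ± 0.13 in that comparison and passed when every probe was tested (adjusted p = 0.0171), with 13.64 to 13.97 in bleomycin lungs against 14.10 to 14.75 in PBS lungs. After bleomycin with the inhibitor it changed by -0.30 ± 0.13, without overlap of arrays, which did not pass (adjusted p = 0.145). Its interaction of 0.19 ± 0.19 did not pass either (adjusted p = 0.601).

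Rtkn2 and Akap5 are the remaining members, and Akap5 is a scaffold that anchors protein kinase A. Rtkn2 read 10.47, 10.80, 10.51, 10.42 and 10.63 in bleomycin lungs with the inhibitor, against 10.13, 10.17, 10.69, 9.96 and 9.86 in those with LNA-control, where replicate 3 again stood above the rest. It was higher with the inhibitor by 0.40 ± 0.13 (1.32-fold, adjusted p = 0.0321), with arrays overlapping through that replicate. The call was lost without replicate 2 or 5 of bleomycin with the inhibitor, without replicate 1, 4 or 5 of bleomycin with LNA-control (adjusted p = 0.063 to 0.0914) and without both replicates 1 and 4 of that group (0.33, adjusted p = 0.188). With fat and heart transcripts as covariates the difference was 0.06 (adjusted p = 0.937), and with the RNA integrity number as a covariate it was 0.29 (adjusted p = 0.171). After bleomycin Rtkn2 moved by 0.24 ± 0.15 with the inhibitor (adjusted p = 0.286) and by -0.33 ± 0.15 with LNA-control (adjusted p = 0.147). In PBS lungs Rtkn2 read 10.13, 10.42 and 10.41 with the inhibitor, against 10.33, 10.57 and 10.60 with LNA-control, lower in each of the 3 same-numbered pairs. That difference of -0.18 ± 0.17 did not pass (adjusted p = 0.896, and 0.892 with the replicate block). The bleomycin difference with LNA-control was -0.47 and passed without replicate 3 of bleomycin with LNA-control (adjusted p = 0.00787), and the interaction was then 0.71 (adjusted p = 0.00914), against 0.58 ± 0.21 with all arrays (adjusted p = 0.11).

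Akap5 gave negative differences after bleomycin with either LNA, close to the threshold, which neither passed in the reported fit. It ran from 13.66 to 14.18 after bleomycin and from 14.11 to 14.40 after PBS with the inhibitor, a difference of -0.32 ± 0.12 (adjusted p = 0.0843). With LNA-control it ran from 13.87 to 14.23 after bleomycin and from 14.22 to 14.48 after PBS, a difference of -0.36 ± 0.12 (adjusted p = 0.0516). The difference with the inhibitor passed in 3 of 30 alternatives: centred on each array's median (-0.37, adjusted p = 0.0492) and without replicate 1 or 2 of bleomycin with the inhibitor (-0.38 for each, adjusted p = 0.0387 and 0.0478). The difference with LNA-control passed in 12 of 30, with adjusted p between 0.0032 and 0.0489. These were 7 settings of scale, probe, filter, weights, moderation or arrays fitted, and the removal of replicate 1, 2 or 4 of bleomycin with the inhibitor, replicate 3 of bleomycin with LNA-control or replicate 3 of PBS with the inhibitor (adjusted p = 0.0223 to 0.0486). The interaction was 0.03 ± 0.17 (adjusted p = 0.929, 95% interval -0.33 to 0.40), and the inhibitor's difference in bleomycin lungs was -0.07 ± 0.10 (adjusted p = 0.681).

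Replicates of a group did not differ in the same way for all 9 genes. In bleomycin lungs with LNA-control, replicate 3 lay above its group mean for 8 of the 9 genes, the exception being Ndnf (-0.23), and replicates 4 and 5 for 2 of the 9 each. Among bleomycin lungs with the inhibitor the number ran from 2 (replicate 3) to 7 (replicate 2). Replicate 2 was above its group mean for 8 of the 9 genes in each PBS group.

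Genes of neighbouring epithelial states were counted beside these. Of 9 measured transitional genes 8 rose after bleomycin with LNA-control (median 0.81), among them Krt8 by 0.81 ± 0.10 and Cldn4 by 1.62 ± 0.20, and 7 were lower with the inhibitor in bleomycin lungs (median -0.62). Their summed intensity, as log2, was 16.86 to 17.08 in bleomycin lungs with the inhibitor and 17.41 to 17.63 in those with LNA-control. In PBS lungs it was 16.79 to 16.85 with the inhibitor and 16.78 to 16.82 with LNA-control. After bleomycin with the inhibitor 2 of these 9 rose (median 0.094), Krt8 (0.33) and Sfn (0.73). Their calls were kept in 7 and in 16 of 29 alternatives. Cldn4 was dim, with group means of 6.33 to 7.96, where the median of gene means was 8.47. Of 11 type 2 genes 1 rose and 2 fell after bleomycin with LNA-control (median -0.098), and 2 were higher with the inhibitor in bleomycin lungs (median -0.011). Of all genes 17.5% passed after bleomycin with LNA-control and 24.9% for the inhibitor in bleomycin lungs. Without replicates 1 and 4 of bleomycin with LNA-control, 7 and 7 of the transitional genes and 0 and 0 of the type 2 genes passed in these comparisons. When fat and heart transcripts were covariates, 6 transitional genes rose after bleomycin with LNA-control and 0 were lower with the inhibitor. For the inhibitor Lgals3, Krt18, Clu and Cldn4 were then at -0.65, -0.38, -0.65 and -1.04 (adjusted p = 0.0583 to 0.194). The share of all genes that passed with these covariates is not given here. Sftpc, among the type 2 genes, read 18.32 on every array of 3 groups, the top of the scale, so a rise in it could not be seen. Among 13 regulators and targets of type 1 identity 2 rose and 3 fell after bleomycin with LNA-control. Amotl2 fell by 0.68 ± 0.10 and Yap1 by 0.29 ± 0.08, while the matricellular gene Ccn2 rose by 0.43 ± 0.12 (adjusted p = 0.000215, 0.0168 and 0.0183). After bleomycin with the inhibitor 1 of the 13 rose, Klf5 (0.66), and 1 fell, Yap1 (-0.30). These calls were kept in 23 of 29 alternatives for Klf5 and in 22 of 29 for Yap1. With the inhibitor in bleomycin lungs 2 of the 13 were higher and 2 lower. Klf5 (0.65 ± 0.14, adjusted p = 0.00307) and Ankrd1 (0.41) were higher. Ccn2 (-0.50 ± 0.10, adjusted p = 0.00239) and Ccn1 (-0.71) were lower. Under the fat and heart covariates Klf5 was at 0.06 (adjusted p = 0.926), Ankrd1 at 0.43 (adjusted p = 0.168) and Ccn2 at -0.65 (adjusted p = 0.137). Ccn1 kept its call in all 29 alternatives. The changes of Ccn2 and Yap1 after bleomycin with LNA-control each missed the threshold when replicate 1 (adjusted p = 0.0707 and 0.103) or replicate 2 (0.0628 and 0.0892) of the PBS lungs given LNA-control was left out. When replicates 1 and 4 were left out, 1 rose and 1 fell after bleomycin with LNA-control.

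The genes whose profiles over the 16 arrays were most like those of the 9 were looked up among the 10431 brighter genes of the array, by Pearson's r as a description. All points share the same libraries and the group differences above, so r carries no test here. Ndnf was most like Nrg1 (r = 0.983), Igfbp2 (r = 0.977) and Tmem37 (r = 0.963). Hopx was most like Col23a1 (r = 0.947), Scgb3a1 (r = 0.946) and Fgf1 (r = 0.941), and Clic5 most like Vsig2 (r = 0.950). The gene nearest to Ager was Pex6 (r = 0.958), to Aqp5 Mlst8 (r = 0.934), to Akap5 Cfap126 (r = 0.933), to Emp2 Nucb2 (r = 0.915) and to Rtkn2 Cd55b (r = 0.898). Pdpn had the lowest such value, 0.863 with Nutf2. No member was among the 3 genes most like another member.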

How the data were processed

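The deposited table holds log2 intensities of 16 single-colour (Cy3) Agilent arrays of whole lung RNA (0.2 ug each). The authors prepared it with limma, per the submitters' processing notes; the version, background correction and filters are not given in the sources used here. The log2 values had been quantile normalized: once sorted, those of any 2 arrays differed by at most 0.0974. Of 62976 spots, 31465 had 1 gene name, and 29050 of these were matched to RefSeq transcripts to update symbols. The probe with the highest mean represented each of 20863 genes, with no filter. All arrays were fitted together in limma (version 3.58.1, under R 4.3.3), with 1 mean per group and 5 contrasts, with two-sided tests adjusted over all genes (Benjamini-Hochberg). Exact permutation tests (SciPy 1.17.1) compared single genes. The fit was tested on simulated data. Detection flags were not used here, and the number of arrays limits the precision.

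The members, lists and rules were chosen with earlier results of these data known. All members are named; of other lists, at most 4 called genes per comparison by smallest p; and the 3 genes most like each member. The genes Gramd2a, Areg and Ccl21a of the lists had no probe. The deviations of same-numbered PBS arrays correlated across genes at r = 0.411, 0.108 and 0.497 for replicates 1, 2 and 3. Replicate 2 with the inhibitor reached 0.287 with a differently numbered array. Same-numbered arrays gave -0.102 to -0.007 for bleomycin and PBS with LNA-control, and -0.373 to 0.027 between the bleomycin groups. The labels state no pairing and the fit reported has no block. With the block 0 of the 9 passed in PBS lungs too. Alternatives covered scaling, probe choice, dim genes, array weights, moderation, the arrays in the fit, covariates, the replicate block and each array left out.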

Additional observations from a re-analysis of the deposited data

Results flagged for a closer look

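By the interaction test, bleomycin acted differently with the inhibitor than with LNA-control on Ndnf (-1.58), Hopx (0.71) and Clic5 (0.46). The call held in all 28 alternatives for Ndnf, and was lost in 8 of 28 for Hopx and in 12 of 28 for Clic5. On the brighter probe of Pdpn, replicate 2 of bleomycin with the inhibitor read 14.82, far from the other arrays of its group (14.60 to 14.65). This was 1 of 18 gene and group pairs examined for a distant array, and chance alone flags about 1 in 20. The PBS groups, with 3 arrays each, were too small for the rule and were not examined. On the same probe the rule did not flag replicate 1 of bleomycin with LNA-control, at 13.84 against 14.72 to 15.17 in the rest of its group.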

How the results depend on the processing

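Of the 9 genes, 1 passed after bleomycin with the inhibitor when each array was centred on its median (0 as reported). After bleomycin with LNA-control (4 as reported) 7 passed with array weights, 2 with fat and heart covariates and 1 without replicates 1 and 4 of that group, an alternative that removes samples. For the inhibitor in bleomycin lungs (5 as reported) 3 passed with the groups of the contrast only, 3 with RNA integrity as a covariate, 1 with fat and heart covariates and 3 without those 2 arrays. For the interaction (3 as reported) the last 3 of these settings gave 1 each. Leaving out 1 array at a time gave 0 to 1, 2 to 6, 3 to 5, 0 to 0 (inhibitor in PBS lungs) and 1 to 4. The causes were not tested. Among the settings of this paragraph, the share of all genes is given only without replicates 1 and 4, in the results above. The other counts therefore cannot be told from a shift in calls over all genes. With the replicate block 0, 3, 4, 0 and 3 passed. It ended the call of Aqp5 after bleomycin with LNA-control (0.32, adjusted p = 0.0747) and of Ager for the inhibitor in bleomycin lungs (0.40, adjusted p = 0.0553), and no other call of the 9. After bleomycin with the inhibitor same-numbered arrays correlated at 0.116, 0.324 and 0.043, each best with its own number, which is a hint from the data and not the design.

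Signs turned in 34 of the values recomputed, and only in differences that had not passed, apart from Ager for the inhibitor in bleomycin lungs (-0.06 with fat and heart covariates) and Sec14l3 after bleomycin with the inhibitor (0.23 with the middle probe). After bleomycin with the inhibitor Pdpn gave 0.04 with the middle probe and 0.02 with RNA integrity, and Emp2 -0.12 with the mean of probes, -0.30 with the middle probe, -0.01 with a squamous covariate and -0.00092 to 0.12 leaving out 1 array. After bleomycin with LNA-control Ager gave -0.001 centred, -0.10 with weights and -0.05 to 0.13 leaving out 1 array, and Pdpn -0.01 with weights. For the inhibitor in bleomycin lungs Pdpn gave 0.0019 and Akap5 0.03 with weights, Akap5 -0.13 to 0.0018 leaving out 1 array and Emp2 -0.05 with the middle probe. In PBS lungs Ager gave -0.06 with fat and heart covariates and -0.02 to 0.16 leaving out 1 array, Hopx 0.01 with weights and -0.12 to 0.02, Aqp5 -0.01 centred, -0.00026 with weights and -0.06 to 0.12, Pdpn -0.10 with the mean of probes and -0.29 with the middle probe, and Clic5 -0.14 to 0.01. For the interaction Ager gave -0.0011 and Akap5 -0.09 with fat and heart covariates, and Akap5 -0.04 to 0.11 leaving out 1 array. The fat, heart and squamous covariates, the array removals and the list counts were chosen with results known. Signal over background could not be judged from the deposited values.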
